A study of Mus musculus with 27 samples.

Results

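Aminoacyl-tRNA synthetases join amino acids to their transfer RNAs, and 36 of their genes were followed here in mouse liver. The genes were taken by symbol, 20 coding for cytosolic and 16 for mitochondrial enzymes, out of 55414 genes counted. All 36 passed the filter on low counts, which asked for 10 counts per library on average and left 14114 genes for testing. Lars2, the mitochondrial leucyl enzyme, is treated apart because its counts varied strongly between libraries, so counts of members below are over the other 35 unless stated.

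RNA was taken from whole livers and sequenced in 27 libraries of female Balb/c mice, 8 weeks old, in 8 groups that differ in injury and in treatment. Injury was given as CCl4, a liver toxin that causes fibrosis, by intraperitoneal injection over 2 weeks, and mice without it received olive oil by the same route. The groups without CCl4 were control (4 mice, with PBS into the tail vein), 4MU (3 mice, gavage of 4-methylumbelliferone, an inhibitor of hyaluronan synthesis), siLuc-LNP (3 mice) and siHAS2-LNP (3 mice). The last pair received lipid nanoparticles into the tail vein with siRNA against luciferase, which mice lack, or against the hyaluronan synthase Has2. The groups with injury were CCl4 (2 mice), CCl4 + 4MU (4 mice), CCl4 + siLuc-LNP (4 mice) and CCl4 + siHAS2-LNP (4 mice). According to the methods, 4MU and the nanoparticles were started 2 days ahead of the CCl4 injections, so treatment began before injury. The methods also state that 4MU was mixed with carboxymethyl cellulose, which control mice received by gavage. The questions were what CCl4 changes in each arm and whether treated and untreated livers differ after CCl4. The CCl4 group is a common reference of several comparisons and holds only 2 mice.

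Each synthetase charges the tRNAs of a particular amino acid, and the charged tRNAs feed the ribosome. The cytosol and the mitochondrion mostly use separate enzymes, all encoded in the nucleus, although Gars1 and Kars1 serve both compartments. Several cytosolic synthetases sit in a multi-synthetase complex held by scaffold proteins, and many are known targets of ATF4, the transcription factor that responds to amino acid shortage and endoplasmic reticulum stress.

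Libraries held 7044386 to 29425937 counts, so 3 counts correspond to 0.102 to 0.426 CPM (read counts relative to library size, scaled by TMM) in a library. Has2 had 0 to 2 counts in every library, too few to check the knockdown in whole liver. In the library CCl4 + siLuc-LNP replicate 3, the 18S ribosomal RNA gene Rn18s-rs5 took 15% of the counts, against 0.0427% to 0.544% in the other 26, and CCl4 + siHAS2-LNP replicate 4 was the shallowest library. The summed level of 6 hepatocyte markers, led by Alb, was 166000 to 204000 CPM in control and 73600 to 130000 CPM in CCl4 mice. In uninjured 4MU, siLuc-LNP and siHAS2-LNP mice it was 132000 to 159000, 132000 to 162000 and 154000 to 177000 CPM. The proliferation markers that follow summed to 2.66 to 5.7, 12.5 to 22.2 and 24.5 to 29.7 CPM in these uninjured groups, so baselines differed between arms. The summed level of 5 proliferation markers was 7.38 to 14.1 CPM in control and 296 to 638 CPM in CCl4 mice, and that of 6 stellate cell and myofibroblast markers 33.8 to 65.3 and 397 to 642 CPM. Of the marker genes tested for the averaged effect of CCl4 defined below, 5 of 5 for proliferation (median log2 fold change 4.25), 5 of 6 stellate (2.6) and 4 of 4 ductal (1.37) were higher. Of 6 hepatocyte markers 1 was higher and 3 lower (-0.21), of 6 macrophage markers 3 higher and 1 lower (0.66), of 4 endothelial markers 2 higher and 1 lower (0.1) and of 5 lymphocyte markers 1 higher and 2 lower (-0.59). Over all tested genes 26.3% were higher and 25.6% lower. In whole liver, fewer cells of a type and less RNA per cell cannot be told apart, and the part of these shifts in the differences below was not tested.

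To show what the upstream sequence of the members holds, the 250 bases before the annotated start of the canonical transcript were searched on both strands for TGATGNAA (the composite element bound by ATF4 with C/EBP proteins), CACGTG (the E-box) and the palindromic core of the NRF1 element. TGATGNAA was found before 2 of 36 members (5.56%), against 2.07% of 12704 tested protein-coding genes, CACGTG before 3 (8.33% against 7.76%) and the NRF1 core before 0 (against 0.984%). Sites are shown because the ATF4 response is a common account of synthetase expression. Each is written 5′ to 3′ on the strand of the gene with the match in capitals (GRCm39), and a match is a description of letters, not of binding. The TGATGNAA matches shown lie on the opposite strand, 25 bases before the start of Aars1 and 8 bases before that of Tars1. The E-boxes begin 180 bases before Aars1 and 39 bases before both Iars1 and Farsb.
Aars1, chr8:111760472-111760501: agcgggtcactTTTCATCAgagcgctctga
Tars1, chr15:11399752-11399781: tagggcggggccaggagtcccgTTGCATCA
Aars1, chr8:111760316-111760345: agtcaaccctgtCACGTGacactccatgtc
Iars1, chr13:49835525-49835554: gaccaatcgccaCACGTGttgtttgtaggt
Farsb, chr1:78465556-78465585: ttagacaggcatCACGTGagacagcccaag

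In control liver, per length of transcript, the cytosolic synthetase mRNAs had the higher median level. The median over the 20 cytosolic members was 16.8 CPM per kb of the canonical transcript (range 3.47 to 40.3), and over the 15 mitochondrial members other than Lars2 it was 3.64 CPM per kb (0.209 to 14.4). The difference between these medians was not tested. The order was led by Nars1, the asparaginyl enzyme, at 40.3 ± 5.98 CPM per kb (SD, n = 4), before Tars1 at 32.5 ± 3.94 and Aars1 at 32.1 ± 3.8. The reads counted for Lars2 came to 32.3 ± 6.49, but these follow 18S ribosomal RNA, as described below, and are not read as its mRNA level. Fars2, the mitochondrial phenylalanyl enzyme, was the most abundant of the 15 at 14.4 ± 1.15. Mars2, the mitochondrial methionyl enzyme, came last at 0.209 ± 0.021 CPM per kb, a value that rests on an annotated transcript of 11294 bases. The low places of Cars2, Nars2 and Yars2 likewise rest on long annotated transcripts (7554, 6933 and 6748 bases), and the cytosolic Cars1 has one of 6749 bases. The medians and the order therefore depend on the annotated lengths. The 4 control mice overlapped between 29 of the 35 pairs of neighbours in this order, Lars2 included. They did not overlap between Fars2 and Farsb, Wars1 and Rars2, Tars3 and Yars2, Yars2 and Nars2, Cars2 and Wars2, or Wars2 and Mars2.

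**Figure D1:**
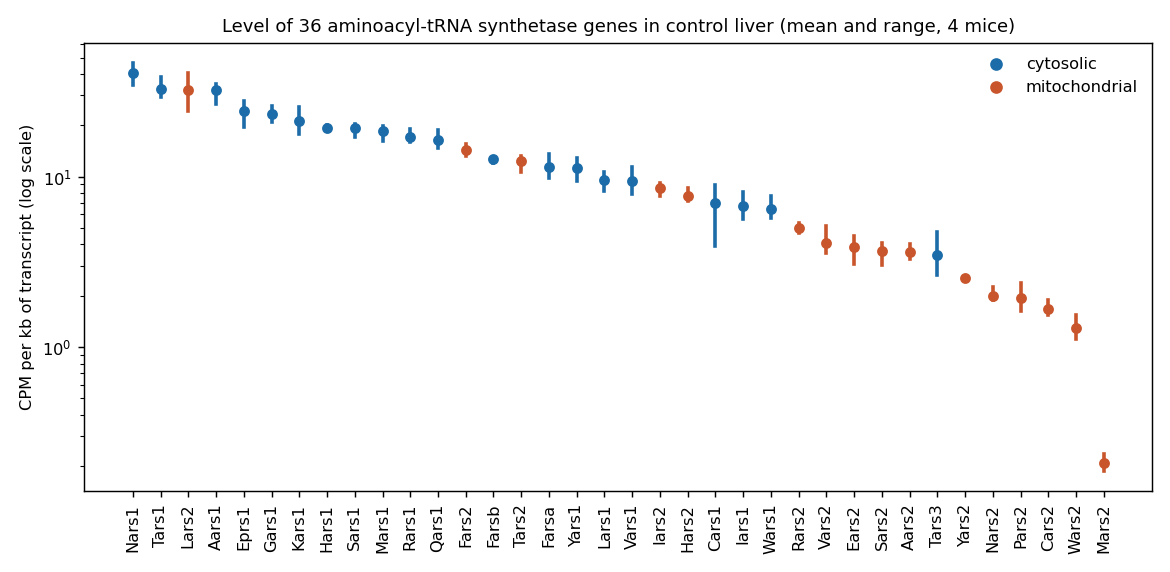
Level of the 36 synthetase genes in the 4 control livers, in CPM per kb of the canonical transcript on a log axis. Points are means, lines run from the lowest to the highest mouse, and the colour marks cytosolic or mitochondrial enzymes, whose medians were 16.8 and 3.64 CPM per kb (Lars2 left out of the latter).

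The averaged effect of CCl4 is the mean, over the 4 arms, of the difference between the injured and the uninjured group of the same treatment. It raised cytosolic synthetases in part and split the mitochondrial ones. Of the 20 cytosolic members, 10 were higher, 0 lower and 10 not called at an adjusted p under 0.05 (quasi-likelihood test of edgeR, p adjusted after Benjamini and Hochberg over all tested genes, used throughout). Of the 15 mitochondrial members, 2 were higher, 4 lower and 9 not called. Together 12 of 35 were higher (34.3%) and 4 lower (11.4%), while 26.3% of all tested genes were higher and 25.6% lower. The cytosolic members that rose were 50% of their group and stood above that background, and the mitochondrial members (13.3% higher and 26.7% lower) did not. The median log2 fold change was 0.18 for cytosolic members, -0.023 for mitochondrial members and -0.015 for all tested genes, and most changes of members were small. The cytosolic excess was not shared by all arms. With siHAS2-LNP, CCl4 called 5% of cytosolic members higher, beside 7.74% of all tested genes (cytosolic median 0.032). With 4MU the shares were 15% and 13.2% (median -0.039). They were 25% and 13% with siLuc-LNP (median 0.2). Untreated mice, of which only 2 had CCl4, gave 35% and 18% (median 0.34).

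**Figure D2:**
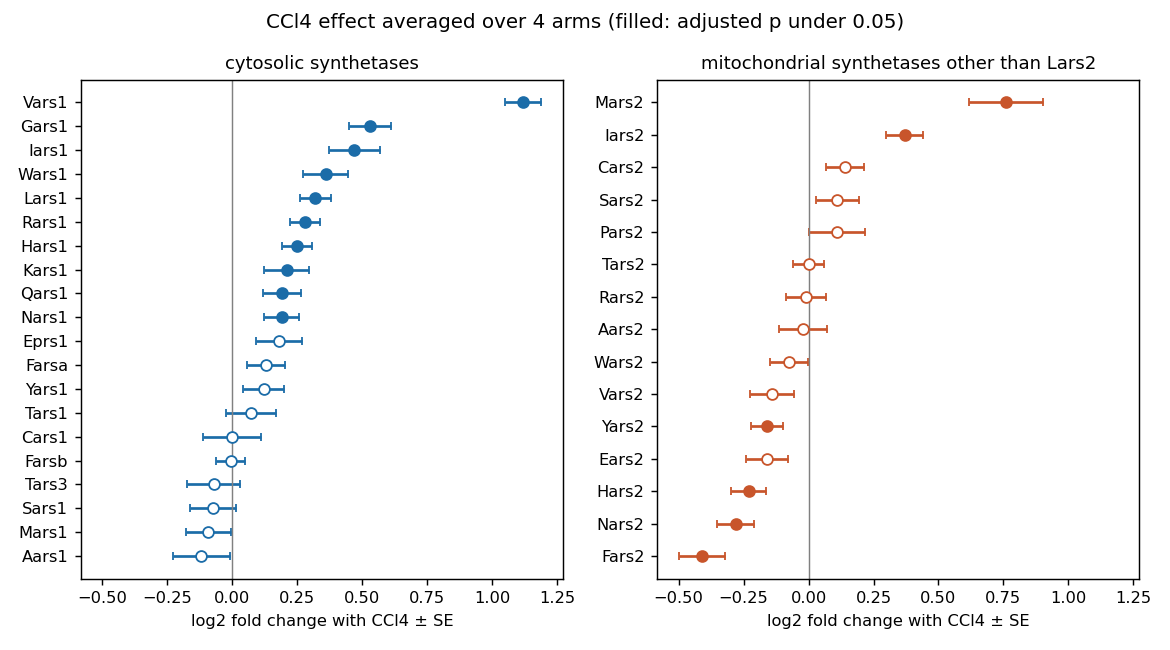
Log2 fold change with CCl4, averaged over the 4 arms, for the 20 cytosolic (left) and 15 mitochondrial (right) members. Bars are standard errors and filled points have an adjusted p under 0.05. Vars1 stands at 1.12 and Mars2 at 0.76, and the called mitochondrial genes Fars2, Nars2, Hars2 and Yars2 lie between -0.41 and -0.16.

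Vars1, the only valyl enzyme of the cytosol, changed most. Its level was 48.2, 36.9, 41.9 and 33.4 CPM in control, 50.3, 40.5 and 35.5 in 4MU, 32.3, 34 and 32.3 in siLuc-LNP and 39.3, 41 and 44.3 in siHAS2-LNP mice. With CCl4 it was 103 and 116 CPM without treatment, 66.9, 72.8, 78.7 and 73.9 with 4MU, 76.1, 85.7, 99.1 and 94.4 with siLuc-LNP and 76.2, 67.5, 73.2 and 68.8 with siHAS2-LNP. All 14 injured livers lay above all 13 uninjured ones, which held for no other of the 35 members and, over all tested genes, for 3.21% in this direction and 1.37% in the other. The averaged log2 fold change was 1.12 (standard error, SE, 0.0691, adjusted p = 1.73e-12), a 2.17-fold rise, and it was called in each arm, at 1.45 for CCl4 against control (0.144, adjusted p = 4.25e-08), 0.8 in 4MU (0.134, adjusted p = 0.000129), 1.43 in siLuc-LNP (0.138, adjusted p = 5.08e-08) and 0.78 in siHAS2-LNP mice (0.135, adjusted p = 0.000318). None of the alternative settings run, left-out libraries included, ended any of these calls.

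The other cytosolic members that rose did so by less. Gars1, the glycyl enzyme, was 55.4, 58.3, 63.3 and 50.4 CPM in control, 62.6, 54.2 and 53.3 in 4MU, 56.2, 62 and 55.6 in siLuc-LNP and 53.5, 66.7 and 58.9 in siHAS2-LNP mice. With CCl4 it was 113 and 96.2 CPM without treatment, 72.7, 70.6, 74.2 and 97 with 4MU, 76.9, 67.5, 102 and 77.9 with siLuc-LNP and 91.7, 72.7, 59.6 and 65.8 with siHAS2-LNP. The range was 50.4 to 66.7 CPM (median 56.2) in the 13 livers without and 59.6 to 113 CPM (median 75.6) in the 14 with CCl4. The log2 fold change was 0.53 (SE 0.0805, adjusted p = 6.74e-06). Of the 14 injured livers 12 lay above every uninjured one, a separation that was not counted over all tested genes. Iars1, the isoleucyl enzyme and a subunit of the complex, was 21 to 40.2 (median 31.8) and 31.9 to 49.9 CPM (median 41.9), a log2 fold change of 0.47 (0.0998, adjusted p = 0.000397). Its group means lay between 28.7 ± 6.64 CPM (siLuc-LNP, SD, n = 3) and 31.4 ± 5.15 (siHAS2-LNP, n = 3) without and between 40.2 ± 3.2 (CCl4 + 4MU, n = 4) and 42.8 ± 6.39 (CCl4, n = 2) with CCl4. Wars1, the tryptophanyl enzyme, rose by 0.36. Its group means lay between 15.7 ± 3.95 (siLuc-LNP, n = 3) and 19.1 ± 2.51 CPM (siHAS2-LNP, n = 3) without CCl4, and between 19.7 ± 2.58 (CCl4 + siHAS2-LNP, n = 4) and 25.4 ± 4.31 CPM (CCl4 + 4MU, n = 4) with it. Lars1 rose by 0.32, Rars1 by 0.28, Hars1 by 0.25, Kars1 by 0.21, and Nars1 and Qars1 by 0.19 each. The calls of Kars1 and Qars1 were near the threshold (adjusted p = 0.0424 and 0.0346). Kars1 lost its call without any of 11 libraries (control replicates 2 and 3, 4MU replicates 2 and 3, CCl4 replicate 2, CCl4 + 4MU replicates 1, 2 and 4, siHAS2-LNP replicate 2, CCl4 + siHAS2-LNP replicate 1 and siLuc-LNP replicate 1), with log2 fold changes of 0.16 to 0.21. Qars1 lost its call without any of 7 (control 2, 4MU 2, CCl4 2, siHAS2-LNP 2, CCl4 + siHAS2-LNP 1, siLuc-LNP 1 and CCl4 + siLuc-LNP 3), at 0.15 to 0.19. The cytosolic members not called were Eprs1 (0.18, adjusted p = 0.0894), Farsa, Yars1, Tars1, Cars1, Farsb, Tars3, Sars1, Mars1 and Aars1 (-0.12). Of the 7 synthetases of the complex 5 rose (71.4%, beside 26.3% of all tested genes), Mars1 and Eprs1 being the others, and of the 3 scaffold genes, Aimp1, Aimp2 and Eef1e1, 0 were called (-0.12, 0.12 and -0.13).

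Among mitochondrial members Mars2 and Iars2 rose. Mars2 is expressed at a low level. It was 2.44, 2.66, 2.22 and 2.13 CPM in control, 2.46, 2.54 and 2.18 in 4MU, 2.35, 1.65 and 1.54 in siLuc-LNP and 1.74, 1.65 and 1.44 in siHAS2-LNP mice. With CCl4 it was 4.38 and 6.56 CPM without treatment, 2.19, 2.64, 3.33 and 2.21 with 4MU, 3.02, 2.97, 2.34 and 4.57 with siLuc-LNP and 3.37, 4.2, 2.53 and 1.47 with siHAS2-LNP. Both untreated CCl4 livers lay above all uninjured livers, and the treated ones overlapped with them. Its averaged log2 fold change was 0.76 (SE 0.141, adjusted p = 8.46e-05). Iars2, the mitochondrial isoleucyl enzyme, was 39.4 to 60.4 (median 50.2) and 56.2 to 76 CPM (median 62.7), a log2 fold change of 0.37 (0.0702, adjusted p = 9.95e-05), with the highest group mean in CCl4 (68.9 ± 10 CPM, n = 2) and the lowest in control mice (48.3 ± 3.57, n = 4). The members that fell all charge tRNAs inside mitochondria. Fars2 was 33.2, 28.9, 32.2 and 28.2 CPM in control, 28.1, 32.6 and 33.7 in 4MU, 28, 36.6 and 30.3 in siLuc-LNP and 32, 36 and 32.2 in siHAS2-LNP mice. With CCl4 it was 27.7 and 19.9 CPM without treatment, 25.9, 27.9, 26.4 and 27.9 with 4MU, 19.7, 28.7, 26.1 and 16.6 with siLuc-LNP and 29.2, 19.9, 18.1 and 22.7 with siHAS2-LNP. Its exons overlap with those of the more abundant Nrn1 on the other strand, given below. Of the 14 injured livers, 12 lay below every uninjured one, a separation that was not counted over all tested genes. The log2 fold change of Fars2 was -0.41 (0.0885, adjusted p = 0.000453). Nars2 fell by 0.28, with group means of 11.6 to 13.8 CPM in the groups without and 10.3 to 11.4 CPM in those with CCl4. Hars2 fell by 0.23 and Yars2 by 0.16 on the log2 scale, and Yars2 had nearly the same mean in control (17.2 ± 0.189 CPM, n = 4) and CCl4 mice (17.4 ± 0.478, n = 2). The call of Yars2 (adjusted p = 0.0266) was lost without any of 7 libraries (4MU 1, CCl4 1, siHAS2-LNP 1, CCl4 + siHAS2-LNP 3 and 4, siLuc-LNP 2 and CCl4 + siLuc-LNP 1), at -0.14. Aars2, Cars2, Ears2, Pars2, Rars2, Sars2, Tars2, Vars2 and Wars2 were not called, with log2 fold changes of -0.16 (Ears2) to 0.14 (Cars2).

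Cytosolic and mitochondrial enzymes for the same amino acid did not always move alike. Of the 13 amino acids with a numbered pair of genes, Iars1 and Iars2 both rose and, with the reservation on Lars2 below, so did Lars1 and Lars2. Hars1 rose while Hars2 fell, and Nars1 rose (log2 fold change 0.19) while Nars2 fell (-0.28). By arm, Hars1 was called only for CCl4 against control, Hars2 only in 4MU mice, Nars1 only for CCl4 against control and Nars2 in no single arm. With a replicate block the averaged call of Nars1 was lost (0.18, adjusted p = 0.0531). Without the low-count filter the averaged calls of Nars1 (adjusted p = 0.164) and Hars2 (adjusted p = 0.0579) were lost, as were those of Kars1 (0.0924), Qars1 (0.144) and Yars2 (0.261). Vars1, Rars1 and Wars1 rose while their mitochondrial partners Vars2 (-0.14), Rars2 (-0.0099) and Wars2 (-0.075) were not called. The reverse held for methionine, where Mars2 rose and Mars1 was not called (-0.093). For tyrosine, Yars2 fell and Yars1 was not called (0.12), and for alanine, cysteine, serine and threonine neither gene was called. The difference between partners was not itself tested.

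By arm, CCl4 against control called 9 members higher (25.7%, background 18%) and 0 lower (background 16.1%). They were Vars1, Mars2 (log2 fold change 1.22), Hars1 (0.98), Gars1 (0.88), Lars1 (0.77), Eprs1 (0.63), Nars1 (0.58), Iars2 (0.51) and Rars1 (0.5). Lars1, the leucyl enzyme of the complex, was 38.4, 42.6, 39.4 and 33 CPM in control and 67.6 and 63 CPM in CCl4 mice, and between 41.9 and 55.2 CPM in the treated injured mice. Rars1 was 36.6, 40.4, 35.7 and 33.9 CPM in control and 48.8 and 54.7 CPM in CCl4 mice. Neither gene overlapped between these groups, but both were picked by their calls. How often groups of 2 and 4 mice fail to overlap over all tested genes was not counted. The calls of Vars1, Hars1, Gars1, Lars1 and Nars1 stood whichever library was left out. Without CCl4 replicate 2, Mars2 was at 0.92 (adjusted p = 0.0967), Eprs1 at 0.68 (adjusted p = 0.0616) and Rars1 at 0.44 (adjusted p = 0.0622), and without CCl4 replicate 1, Eprs1 was at 0.62 (adjusted p = 0.0566) and Iars2 at 0.37 (adjusted p = 0.137).

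In 4MU mice, CCl4 called 4 members higher (11.4%, background 13.2%) and 1 lower (2.86%, background 10.5%). Besides Vars1 these were Wars1 (0.59), Gars1 (0.47), Iars2 (0.41) and, lower, Hars2 (-0.47). Hars2, the mitochondrial histidyl enzyme, was 28.7, 27.1 and 29.5 CPM in 4MU and 22.1, 21.3, 21.5 and 17.5 CPM in CCl4 + 4MU mice. These values did not overlap, which was not counted over all tested genes. In control and CCl4 mice it was 28.6, 25.6, 23.9 and 24.9, and 25.6 and 20.1 CPM. Its call stood without any single library, as did that of Vars1. Wars1 lost its call without 4MU 3 or CCl4 + 4MU 4 (0.51 and 0.48), Gars1 without 4MU 2, 4MU 3 or CCl4 + 4MU 4 (0.36 to 0.44) and Iars2 without 4MU 2, 4MU 3, CCl4 + 4MU 1 or CCl4 + 4MU 2 (0.28 to 0.39). The number of members called fell to 2 without 4MU 3 and to 3 without CCl4 + 4MU 4.

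In siLuc-LNP mice, CCl4 called 6 members higher (17.1%, background 13%) and 1 lower (2.86%, background 11.2%). Next to Vars1 these were Mars2 (0.82), Iars1 (0.53), Gars1 (0.48), Rars1 and Wars1 (0.47 each) and, lower, Fars2 (-0.48). Rars1, the arginyl enzyme of the complex, was 26.3, 31.8 and 29.8 CPM in siLuc-LNP and 43.8, 37.2, 36.4 and 44.8 CPM in CCl4 + siLuc-LNP mice (adjusted p = 0.00364). These groups did not overlap, which was not counted over all tested genes. Only Rars1 and Vars1 kept their calls whichever library was left out. Mars2 lost its call without siLuc-LNP 2 or 3 or CCl4 + siLuc-LNP 4 (0.62 to 0.76), Iars1 without siLuc-LNP 1 or 2 or CCl4 + siLuc-LNP 2, 3 or 4 (0.35 to 0.63) and Gars1 without siLuc-LNP 1 or 3 or CCl4 + siLuc-LNP 3 (0.37 to 0.46). Wars1 lost its call without siLuc-LNP 1 or 2 or CCl4 + siLuc-LNP 2 or 4 (0.29 to 0.54), and Fars2 without siLuc-LNP 2 or 3 or CCl4 + siLuc-LNP 1 or 4 (-0.51 to -0.33). The count of members called fell to 3 or 4 without any siLuc-LNP library or CCl4 + siLuc-LNP 4, and to 1, Vars1, in a fit of these 2 groups alone.

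In siHAS2-LNP mice, CCl4 called 2 members higher (5.71%, background 7.74%) and 2 lower (5.71%, background 5.09%), shares close to the background. They were Mars2 (0.88) and Vars1 (0.78), and Fars2 (-0.57) and Yars2 (-0.39). Vars1 alone kept its call without each library in turn. Mars2 lost its call without any siHAS2-LNP library or CCl4 + siHAS2-LNP 1 or 2 (0.66 to 0.95), Fars2 without any siHAS2-LNP library or CCl4 + siHAS2-LNP 2 or 3 (-0.61 to -0.47), and Yars2 without siHAS2-LNP 1 or 2 or CCl4 + siHAS2-LNP 3 or 4 (-0.39 to -0.33). The count fell to 1 or 2 without any siHAS2-LNP library or CCl4 + siHAS2-LNP 2 or 3.

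**Figure D3:**
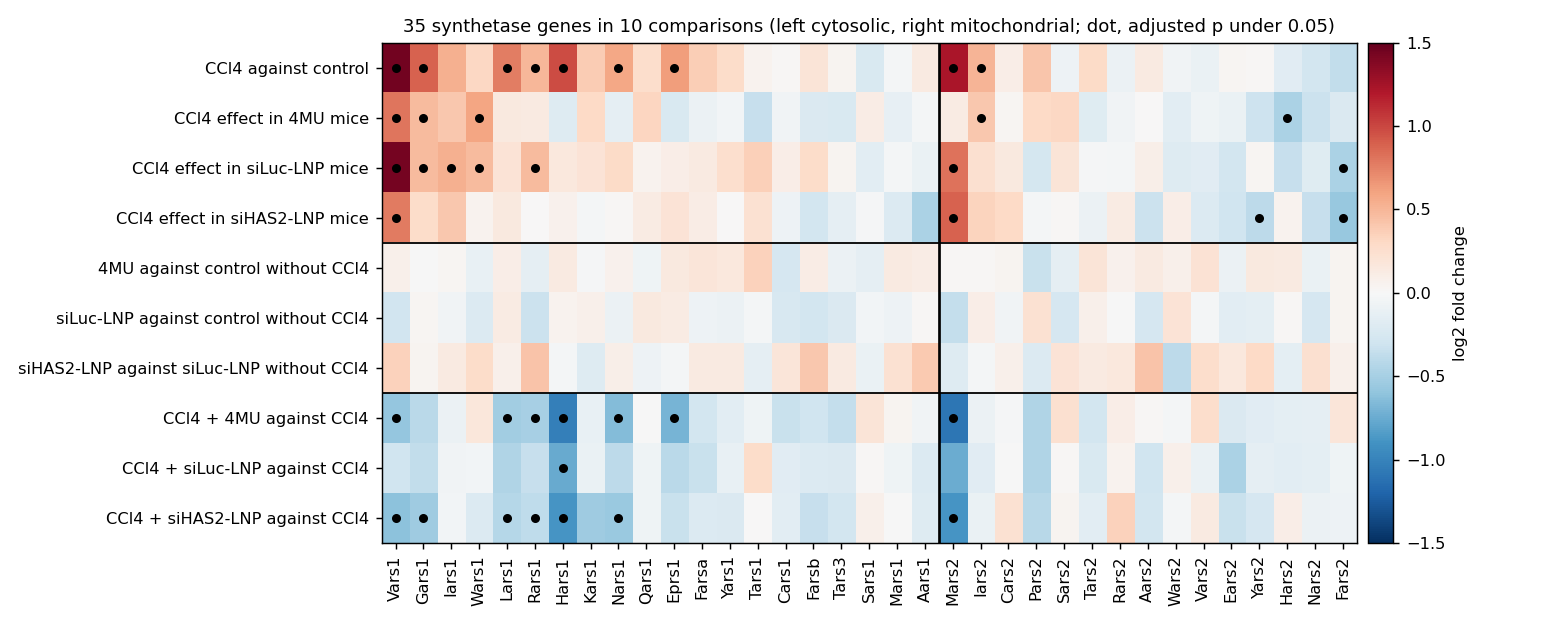
Log2 fold change of the 35 members (columns, cytosolic left and mitochondrial right, each ordered by the averaged effect of CCl4) in 10 comparisons (rows). Dots mark an adjusted p under 0.05. Vars1 is marked in all 4 rows for CCl4, the 3 rows without CCl4 hold no dot, and Hars1 is marked in the 3 rows that set treated against untreated CCl4 mice, which share the same 2 CCl4 livers.

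Hars1, the cytosolic histidyl enzyme, stood out in the untreated CCl4 mice. It was 39.5, 39.9, 37.8 and 36.8 CPM in control, 42.2, 41.5 and 43.3 in 4MU, 42.5, 40.4 and 37.1 in siLuc-LNP and 39.6, 38.8 and 38.9 in siHAS2-LNP mice. It was 74.2 and 77.3 CPM in CCl4, 33.1, 39.3, 40.5 and 35.4 in CCl4 + 4MU, 44.3, 41.2, 40.6 and 52.5 in CCl4 + siLuc-LNP and 39.9, 45.4, 35 and 42.9 in CCl4 + siHAS2-LNP mice. Both CCl4 livers lay above the range of the other 25, 33.1 to 52.5 CPM. The log2 fold change was 0.98 for CCl4 against control (SE 0.122, adjusted p = 1.37e-06), and the CCl4 effect was not called in 4MU (-0.19), siLuc-LNP (0.16) or siHAS2-LNP mice (0.061).

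**Figure D4:**
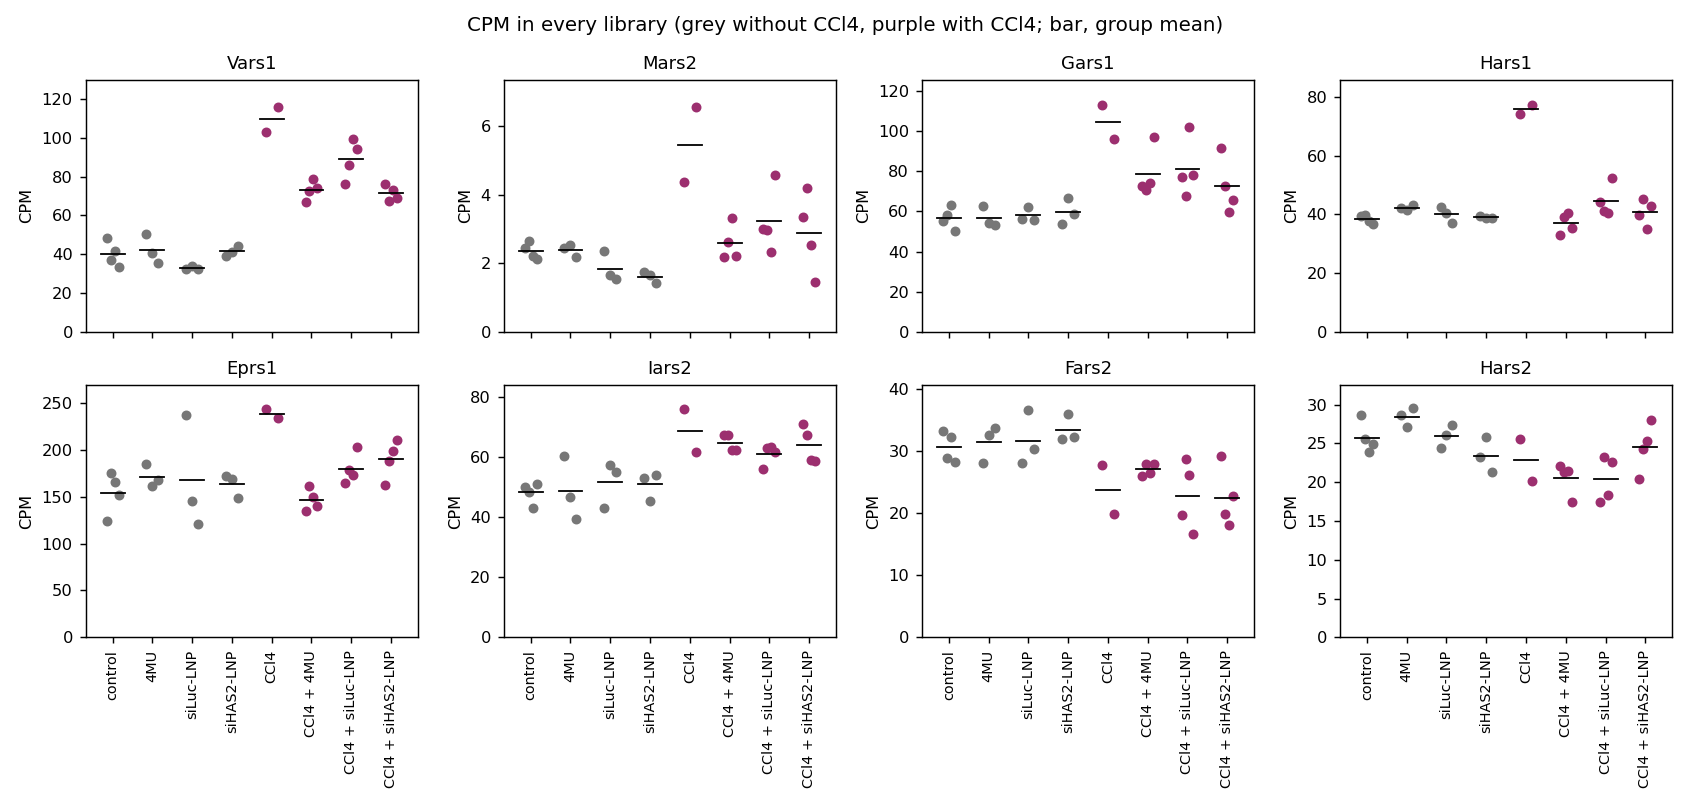
CPM of 8 members in every library, by group, on linear axes from 0. Points are libraries, purple with CCl4 and grey without, and bars are group means. Vars1 is higher in all 14 livers with CCl4, and Hars1 is at 74.2 and 77.3 CPM in the 2 CCl4 livers and at 33.1 to 52.5 CPM elsewhere.

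Treated injured mice had lower levels of several synthetases than untreated injured mice. CCl4 + 4MU against CCl4 called 7 members lower (20%, background 10%) and 0 higher (background 8.28%), with a median log2 fold change of -0.15 over the 35 members beside 0.037 over all tested genes. The 7 were Mars2 (-1.08), Hars1 (-1.03, SE 0.122, adjusted p = 6.32e-05), Eprs1 (-0.7), Nars1 (-0.65), Vars1 (-0.58), Lars1 (-0.52) and Rars1 (-0.5). Eprs1, the enzyme for glutamate and proline, was 243 and 234 CPM in CCl4 and 135, 161, 150 and 140 CPM in CCl4 + 4MU mice, close to its control values of 124, 175, 166 and 152 CPM. Nars1 was 169 and 163 CPM in CCl4, 102, 97.1, 108 and 115 CPM in CCl4 + 4MU, and 98.4, 122, 127 and 95.1 CPM in control mice. In both genes the CCl4 livers were above every mouse of the other groups named. Outside these groups, the uninjured siLuc-LNP replicate 1 had 237 CPM of Eprs1, between the 2 CCl4 livers. Without CCl4 replicate 2 the count fell to 1, Hars1. The others were then at -0.79 (Mars2), -0.76 (Eprs1), -0.71 (Nars1), -0.53 (Vars1), -0.6 (Lars1) and -0.44 (Rars1), and Eprs1 also lost its call without CCl4 replicate 1 (-0.69, adjusted p = 0.051).

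CCl4 + siHAS2-LNP against CCl4 also called 7 members lower (20%, background 7.33%) and 0 higher (background 7.11%). They were Hars1 (-0.89, SE 0.122, adjusted p = 0.000312), Mars2 (-0.88), Vars1 (-0.61), Nars1 (-0.56), Gars1 (-0.53), Lars1 (-0.43) and Rars1 (-0.38), with a median of -0.2 over the 35 members and 0.016 over all tested genes. Hars1 alone kept its call without each library. Without CCl4 replicate 2 the other calls ended and the count fell to 1, with Vars1 at -0.56, Nars1 at -0.62, Mars2 at -0.59, Gars1 at -0.67, Lars1 at -0.51 and Rars1 at -0.33. Without CCl4 replicate 1, Nars1 (-0.54), Gars1 (-0.42) and Lars1 (-0.38) were not called. Leaving out CCl4 + siHAS2-LNP 1 ended the calls of Mars2 (-0.95) and Rars1 (-0.38), leaving out replicate 2 those of Gars1 (-0.54) and Rars1 (-0.4), and leaving out replicate 3 or 4 those of Mars2 (-0.81 and -0.71), Gars1 (-0.45 and -0.49), Lars1 (-0.38 and -0.37) and Rars1 (-0.41 and -0.36), for counts of 3 and 4.

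CCl4 + siLuc-LNP against CCl4 called only Hars1, lower by 0.76 on the log2 scale (SE 0.122, adjusted p = 0.00607), 2.86% of the members beside 0.191% of all tested genes, and 0 members higher (background 0.0567%). Without CCl4 replicate 2 its log2 fold change was -0.74 (adjusted p = 0.0531) and the count 0, and in a fit of the 2 groups alone it was -0.75 (adjusted p = 0.775). Without CCl4 + siLuc-LNP replicate 4 the count was 4. All 3 of these comparisons use the same 2 CCl4 mice, so they are not independent of each other or of CCl4 against control. The summed level of the 5 proliferation markers was 46.1 to 192 CPM in CCl4 + 4MU, 139 to 490 in CCl4 + siLuc-LNP and 138 to 164 in CCl4 + siHAS2-LNP, against 296 to 638 CPM in CCl4 mice, so the siLuc-LNP range overlaps that of CCl4 and the others lie below it. That of the 6 stellate markers was 132 to 400, 234 to 741 and 158 to 256 CPM in the same order, against 397 to 642 CPM. The hepatocyte markers summed to 151000 to 180000, 106000 to 153000 and 111000 to 167000 CPM, against 73600 to 130000 CPM. The part of these levels in the lower synthetase values was not tested.

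CCl4 + siHAS2-LNP and CCl4 + siLuc-LNP mice were compared directly to separate the Has2 siRNA from its carrier, and 0 members were called (background 1.09%). The smallest adjusted p was 0.153, and DESeq2 and limma-voom also called 0. An unadjusted p under 0.05 was found for 4 members (2 higher and 2 lower), and for 16.6% of all tested genes. The median over the members was 0.0087, with a range of -0.43 to 0.3.

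The effect of CCl4 differed with 4MU for 4 cytosolic members (11.4% of members, background 5.67%). The interaction, the CCl4 effect in 4MU mice minus that in mice without treatment, was -1.17 for Hars1 (SE 0.165, adjusted p = 0.00317), -0.85 for Eprs1 (0.252, adjusted p = 0.0468), -0.72 for Nars1 (0.197, adjusted p = 0.0356) and -0.62 for Lars1 (0.171, adjusted p = 0.0365). Vars1 was at -0.65 (adjusted p = 0.0505). In 4MU mice without CCl4, Eprs1 was 185, 161 and 168 CPM, Nars1 116, 121 and 111 and Lars1 41, 40.3 and 42.1. Lars1 was 46.6, 44.9, 45.1 and 45.8 CPM in CCl4 + 4MU mice. Hars1 was called whichever of 13 libraries was left out. The count fell to 1 or 2 without control 1 or 4, 4MU 2 or 3, CCl4 1 or 2, or CCl4 + 4MU 1 or 4. Eprs1 (-0.9 to -0.76) lost its call in 10 of 13 cases, which include 4MU 1 and CCl4 + 4MU 3 besides these 8. Nars1 (-0.77 to -0.67) lost it in 9, these 8 and CCl4 + 4MU 2, and Lars1 (-0.69 to -0.57) in the 8. The interactions of siLuc-LNP with CCl4 (background 0.00709%) and of siHAS2-LNP relative to siLuc-LNP with CCl4 (background 0.0354%) called 0 members. Their smallest adjusted p-values were 0.0816, for Hars1 at -0.82, and 0.179. An unadjusted p under 0.05 was found for 4 and 5 members, and for 10% and 11.4% of all tested genes. DESeq2 called 1 member in each, limma-voom 0, and without CCl4 + siLuc-LNP replicate 4 the siLuc-LNP interaction called 1.

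Without injury no treatment called a member. For 4MU against control (background 0.00709%) the smallest adjusted p was 0.791, 0 members had an unadjusted p under 0.05, and log2 fold changes ran from -0.33 to 0.34. For siLuc-LNP against control (background 0.213%) the smallest adjusted p was 0.447, with 3 members at an unadjusted p under 0.05, all lower. For siHAS2-LNP against siLuc-LNP (background 0.0425%) it was 0.207, with 5 higher and 1 lower at an unadjusted p under 0.05. Over all tested genes, 6.84%, 6.8% and 8.94% had an unadjusted p under 0.05, in the same order of comparisons. DESeq2 also called 0 in each, and limma-voom called 0, 0 and 2.

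Genes around the synthetases gave a mixed picture for the averaged effect of CCl4. Of 28 tested genes of the ATF4 pathway 12 were higher (42.9%) and 4 lower (14.3%), beside 26.3% and 25.6% of all tested genes, with a median log2 fold change of 0.44. The largest rises were in amino acid synthesis, namely Psat1 (4.85) and Phgdh (4.76), the enzymes that lead from glycolysis to serine, Asns (3.35, SE 0.371, adjusted p = 5.39e-08), the asparagine synthetase, and Pycr1 (2.3), which makes proline. Atf4 mRNA itself fell by 0.36 (0.0963, adjusted p = 0.00329), although ATF4 is regulated mainly by translation. Asns was 1.22, 1.24, 0.982 and 2.09 CPM in control and 12.9 and 4.82 CPM in CCl4 mice. Of the 12 cytosolic synthetases often cited as ATF4 dependent, 5 rose (41.7%, namely Gars1, Iars1, Wars1, Lars1 and Nars1) with a median of 0.15, and of the other 8 cytosolic members 5 rose (62.5%, namely Vars1, Rars1, Hars1, Kars1 and Qars1) with a median of 0.2. Neither list had a member called lower, and the median over all tested genes was -0.015. Aars1 and Tars1, which carry the TGATGNAA matches shown above, were not called (-0.12 and 0.071). The part of ATF4 in any of these differences was not tested.

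Of 10 tested helpers and editors of charging, 1 was higher (10%) and 5 lower (50%), beside 26.3% and 25.6% of all tested genes, with a median of -0.21. Sepsecs, which makes selenocysteinyl-tRNA, fell by 0.52 and Prorsd1 by 0.44 on the log2 scale. Dtd1, an editor of D-amino acids on tRNA, fell by 0.4. Of the subunits of the mitochondrial amidotransferase that makes glutaminyl-tRNA, Gatb fell by 0.37, Gatc fell by 0.25 and Qrsl1 rose (0.21, adjusted p = 0.0409), Gatc and Qrsl1 being named after their values were seen. Of 9 elongation factors 4 were higher (44.4%) and 0 lower (median 0.2), namely Gfm1 (0.43), Tufm (0.25) and Tsfm (0.24), all mitochondrial, and Eef1g (0.22). Of 9 interferon response genes, listed because Wars1 is induced by interferon gamma, 2 were higher and 4 lower, beside 26.3% and 25.6% of all tested genes. Those higher were Isg15 (0.81) and Ifit1 (0.51), those lower were led by Cxcl9 (-1.57) and Cxcl10 (-0.6), and the median was 0.045.

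The Lars2 counts followed 18S ribosomal RNA. Lars2 was 126, 159, 126 and 96.2 CPM in control, 370, 404 and 209 in 4MU, 425, 165 and 275 in siLuc-LNP and 101, 144 and 280 in siHAS2-LNP mice. With CCl4 it was 191 and 358 CPM without treatment, 107, 151, 140 and 106 with 4MU, 135, 292, 422 and 910 with siHAS2-LNP, and 177, 437, 20900 and 88.4 with siLuc-LNP. The value of 20900 CPM belongs to the library in which Rn18s-rs5 took 15% of the counts, and the other 26 lay between 88.4 and 910 CPM (median 171). Across the 27 libraries log2 CPM of Lars2 and of Rn18s-rs5 were correlated with Pearson's r = 0.991 (permutation p = 1e-05, adjusted over 3 relations 3e-05) and Spearman's rho = 0.978 (permutation p = 1e-05, adjusted 3e-05), where 1e-05 is the smallest p that 100000 permutations can give. Without the 2 libraries farthest from the median of Rn18s-rs5 r was 0.973, and r of the deviations from group means was 0.992 over all libraries and 0.981 without CCl4 + siLuc-LNP replicate 3. The mitochondrial ribosomal RNAs showed no such relation, with r = 0.259 for mt-Rnr1 (permutation p = 0.196, adjusted 0.294) and 0.17 for mt-Rnr2 (permutation p = 0.416, adjusted 0.416), and rho of 0.00763 (permutation p = 0.97, adjusted 0.97) and 0.04 (permutation p = 0.842, adjusted 0.97). Within groups their r was 0.481 and 0.465, and 0.0578 and 0.102 without CCl4 + siLuc-LNP replicate 3. For the averaged effect of CCl4 the log2 fold change was 1.59 for Rn18s-rs5 (adjusted p = 0.0237), -0.57 for mt-Rnr1 (adjusted p = 0.0243) and -1.33 for mt-Rnr2 (adjusted p = 3.59e-05). Without CCl4 + siLuc-LNP replicate 3, where Rn18s-rs5 was at 184000 CPM, its value was 0.41 (adjusted p = 0.288), and without CCl4 replicate 2 it was 1.46 (adjusted p = 0.0568). The call of mt-Rnr1 was lost without 4MU 3 (-0.5), CCl4 2 (-0.53) or siLuc-LNP 1 (-0.46), and that of mt-Rnr2 stood without each library. Each library held 3.91 to 8.77 Rn18s-rs5 counts per Lars2 count.

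**Figure D5:**
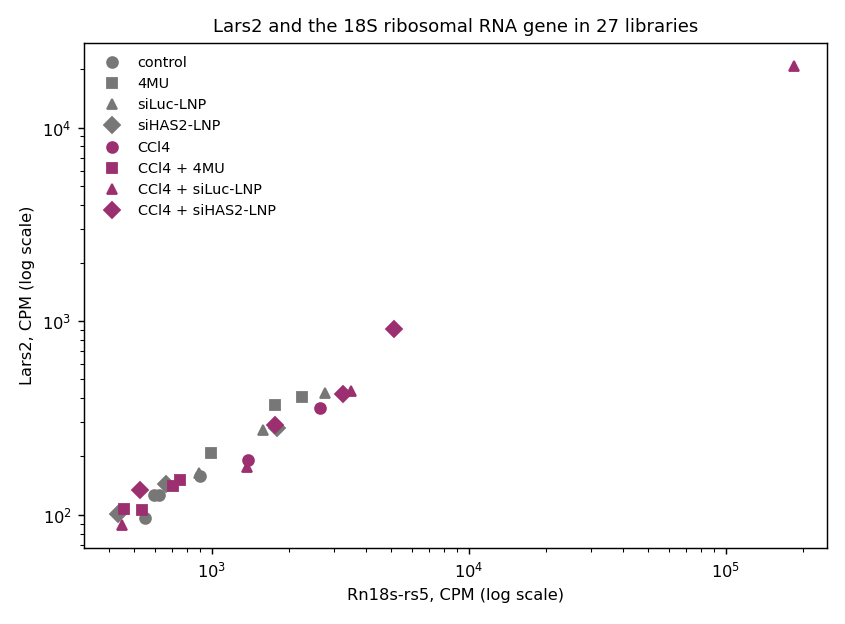
Lars2 against Rn18s-rs5 in the 27 libraries, both in CPM on log axes, with a symbol for each group (purple with CCl4, grey without). The libraries lie along a line with 3.91 to 8.77 Rn18s-rs5 counts per Lars2 count, and CCl4 + siLuc-LNP replicate 3 lies far above the others, at 20900 CPM of Lars2.

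Lars2 was called higher with CCl4 in the averaged effect (log2 fold change 1.32, SE 0.535, adjusted p = 0.0411) and in siLuc-LNP mice (4.23, SE 1.21, adjusted p = 0.0127). Without CCl4 + siLuc-LNP replicate 3 these were 0.19 (adjusted p = 0.558) and -0.28 (adjusted p = 0.731). The averaged call also ended without any of 13 other libraries (control 1, 3 or 4, 4MU 1 or 3, CCl4 2, CCl4 + 4MU 2 or 3, siHAS2-LNP 1 or 2, CCl4 + siHAS2-LNP 4, siLuc-LNP 2 or 3) at 1.18 to 1.36, and that in siLuc-LNP mice without siLuc-LNP replicate 2 (3.95, adjusted p = 0.0588). In the same library Mir6236, Rn7sk, Rn18s-rs5, Gm15564 and Gm55118 were 148 to 328 times their median of the other 26, and Lars2 122 times. The last exon of Lars2 shares a run of 55 bases with Gm15564 (chr9:123291110-123291164, GRCm39), of which the middle 30 are shown because 6 copies of them lie in the assembly.
Lars2, chr9:123291122-123291151: aagcgttggattgttcacccactaataggg
With Rn18s-rs5 the longest exact run shared by the Lars2 locus was 14 bases. Whether the Lars2 counts come from reads of such copies was not tested, and they are not used as a measure of the leucyl enzyme.

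Some members share exon bases with a gene on the other strand in GENCODE vM39, and the strand setting of the counting is not stated, so their counts are uncertain. The largest overlaps are those of Cars2 with Naxd (4080 bases), Mars2 with Boll (3827), Yars2 with Dnm1l (3594), Mars1 with Ddit3 (3576) and Iars2 with Rab3gap2 (2884). Boll had a mean of 1.15 counts per library, against 922 for Dnm1l and 1150 for Naxd. Fars2 shares 501 bases with Nrn1, whose mean of 3970 counts exceeds the 602 of Fars2, and 247 with Lyrm4 (163 counts). Yars1 shares 1536 bases with Nhsl3, whose mean of 1590 counts exceeds the 760 of Yars1. With protein-coding genes on the same strand, Aars1 shares 1326 bases with Exosc6 (mean of 0 counts) and Tars3 shares 120 with Tm2d3 (592 counts). Hars1 and Hars2 share 198 bases with each other, and Vars1 shares exon bases only with D17H6S56E-5, which has no entry in the counts.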

How the data were processed

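Liver RNA of 27 mice was sequenced as poly(A)-selected, strand-marking libraries. According to the methods, the authors trimmed reads with Trimmomatic 0.39, aligned them with HISAT2 to GRCm39 (annotation release 105) and counted pairs per gene with featureCounts, leaving out multimapping reads. The strand setting and the HISAT2 version are not given in the sources used here. The deposited values are raw counts per gene and library, not normalized. Groups come from the sample titles. The sources do not say outright that each replicate is a separate mouse, as assumed here, and otherwise p-values measure only the spread between libraries. None of the 34 pairs of libraries within groups agreed within sampling noise.

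Counts were scaled by TMM and fitted with edgeR 4.0.16 (R 4.3.3) by the quasi-likelihood method, all 27 libraries and 8 groups in 1 fit, over the 14114 genes whose mean reached 10 counts. P-values were adjusted after Benjamini and Hochberg over all of them, with calls at an adjusted p under 0.05. CPM are TMM-scaled. Totals of 7044386 to 29425937 counts put the counting floor of 3 counts at 0.102 to 0.426 CPM, and floors cover counting error only. Of 55414 gene identifiers, 54749 matched GENCODE vM39 (GRCm39), which gave symbols, transcripts and positions. The members and gene lists were chosen with earlier results of these data known, and so was the treatment of Lars2. Values of all or of some groups are given for Lars2, for members called in an interaction and, in each comparison, for up to 6 called members per direction. Lack of overlap between groups was counted over all tested genes only for the 14 livers with against the 13 without CCl4. Other statements of livers lying above or below others concern members picked by their calls and only describe their values. Of a related list at most 4 called genes are named, with Atf4, Asns and ribosomal RNAs in any case. Alternatives were DESeq2 1.42.0, its size factors in edgeR, limma-voom 3.58.1 with sample quality weights, no low-count filter, edgeR's filterByExpr, TMM without Lars2, ribosomal RNA and mitochondrial genes, a replicate block, a fit of the compared groups alone, and each library left out in turn. A fit without CCl4 + siLuc-LNP replicate 3 and CCl4 + siHAS2-LNP replicate 4 was added after the data had been seen. The script was tested on simulated counts. Part of the motif matches is not reported here. The related lists are complex scaffolds, charging helpers and editors, elongation factors, the ATF4 pathway, interferon response genes, ribosomal RNAs and markers of liver cell types.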

Additional observations from a re-analysis of the deposited data

Results flagged for a closer look

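Within the groups of 4 mice, 1 library lay apart from the rest by Dixon's criterion in 4 of 144 tests of a member on the log2 CPM scale (2.78%) and in 5 of 144 on the CPM scale (3.47%), and 3 of these were common to both. Chance gives about 5% of groups. On both scales, CCl4 + 4MU replicate 4 was high for Gars1, at 97 CPM against 70.6 to 74.2 CPM in the other 3, control replicate 2 was high for Nars2, at 15.6 CPM against 13.1 to 13.3 CPM, and CCl4 + siLuc-LNP replicate 2 was high for Sars2, at 13.8 CPM against 9.53 to 10.1 CPM. On the log2 scale alone, CCl4 + 4MU replicate 4 was low for Hars2, at 17.5 CPM against 21.3 to 22.1 CPM. On the CPM scale alone, added after the data had been seen, CCl4 + siLuc-LNP replicate 3 was high for Lars2, at 20900 CPM against 88.4 to 437 CPM, and CCl4 + siHAS2-LNP replicate 1 was high for Sars1, at 85.7 CPM against 52.5 to 57.2 CPM.

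The effect of CCl4 differed between mice with and without 4MU, by the interaction term of the fit, for Hars1 (-1.17), Eprs1 (-0.85), Nars1 (-0.72) and Lars1 (-0.62). Each of the 4 interactions rests on the 2 untreated CCl4 mice. For Hars1 these had 74.2 and 77.3 CPM, and no other library exceeded 52.5 CPM.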

How the results depend on the processing

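Over the 35 members other than Lars2, the averaged effect of CCl4 called 16, with 14 to 17 when 1 library was left out, 11 without the low-count filter, 12 with the replicate block and 13 without CCl4 + siLuc-LNP replicate 3 and CCl4 + siHAS2-LNP replicate 4. With 1 library left out, the counts ran from 6 to 10 for CCl4 against control (9 with all libraries), 2 to 7 in 4MU mice (5), 3 to 7 in siLuc-LNP mice (7), 1 to 3 in siHAS2-LNP mice (4), 1 to 8 for CCl4 + 4MU against CCl4 (7), 0 to 4 for CCl4 + siLuc-LNP against CCl4 (1), 1 to 6 for CCl4 + siHAS2-LNP against CCl4 (7), 1 to 4 for the 4MU interaction (4) and 0 to 1 for the siLuc-LNP interaction (0). DESeq2 called 2 for CCl4 + siLuc-LNP against CCl4 and 1 in each of the siLuc-LNP and siHAS2-LNP interactions. Limma-voom called 9 in 4MU mice, 9 in siHAS2-LNP mice, 2 for siHAS2-LNP against siLuc-LNP without CCl4 and 3 for CCl4 + siHAS2-LNP against CCl4. Without the low-count filter the counts were 2 in 4MU mice, 2 in siLuc-LNP mice, 2 in siHAS2-LNP mice, 4 for CCl4 + 4MU against CCl4, 2 for CCl4 + siHAS2-LNP against CCl4 and 1 for the 4MU interaction. Fits of the compared groups alone called 1 in siLuc-LNP mice, 2 in siHAS2-LNP mice, 0 for CCl4 + siLuc-LNP against CCl4 and 2 for CCl4 + siHAS2-LNP against CCl4, and none was made for the averaged effect. The causes were not tested. Shares of all tested genes called were counted for the main fit only. Changes in the counts under other settings are therefore not read as particular to the members.

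With a replicate block the counts were 4 in siLuc-LNP mice, 1 in siHAS2-LNP mice, 3 for CCl4 + siHAS2-LNP against CCl4 and 1 for the 4MU interaction, and the averaged calls of Kars1, Qars1, Nars1 and Yars2 were lost (adjusted p = 0.104, 0.0504, 0.0531 and 0.052). The median correlation of deviations from group means was -0.0213 for samples with the same number, and 18 of 83 pairs were above 0.1. For different numbers it was -0.012, and 68 of 234 pairs were above 0.1. The labels name no batch, and whether samples with the same number shared one was not tested.

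For Lars2 in siLuc-LNP mice, the log2 fold change of 4.23 turned to -0.28 without CCl4 + siLuc-LNP replicate 3, and also to -0.28 without that library and CCl4 + siHAS2-LNP replicate 4, and leaving out each library in turn gave -0.28 to 4.65. Its averaged value was 0.03 (adjusted p = 0.926) without both. DESeq2 gave Lars2 no adjusted p in these comparisons. Depth limits Mars2 most, the member with the lowest level, and the CCl4 group of 2 mice limits every comparison that uses it.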
